A study of Mus musculus with 1152 samples.

Results

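Microglia of the 5xFAD hippocampus were split into 2 classes by a panel of 8 genes of the disease-associated program: Cst7, Clec7a, Itgax, Spp1, Lpl, Axl, Igf1 and Gpnmb. Cells were chosen by these measured values: a cell with reads in at least 3 panel genes was panel-high, and a cell with reads in 0 or 1 was panel-low. Of 176 wells labelled 5xFAD hippocampus, 133 passed the filter on cells, 86 were panel-high and 31 panel-low. The other 16 had reads in 2 panel genes and entered neither class. The 3 labelled replicates, each taken here as 1 mouse, gave 26, 31 and 29 panel-high cells and 11, 11 and 9 panel-low cells. These 117 cells came from a series of 1140 sorted cells, 939 of which passed the same filter.

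The cells were microglia of 5xFAD mice, a line that carries human amyloid precursor protein and presenilin transgenes with familial Alzheimer disease mutations, driven by a neuronal Thy1 promoter, and that forms amyloid plaques. Both classes carried the transgenes, came from the same 3 replicates and lay on the same plate. The labels give C57BL/6J as the strain of 5xFAD and wild-type (WT) mice alike. The labels state neither age nor sex. Cells were isolated on a Percoll gradient, stained for CD11b, CD45, Ly6C, Ly6G and CD206, and sorted 1 to a well for Smart-seq2, a full-length protocol whose reads are not collapsed to molecules.

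Disease-associated microglia gather around amyloid plaques. Their known program includes lipid, lysosomal and phagocytic genes, depends in part on the receptor Trem2 and its signalling adaptor Tyrobp, and comes with lower expression of the homeostatic genes of resting microglia, such as P2ry12, Tmem119 and Cx3cr1. Lysosomal cathepsins break down ingested protein, and Apoe carries lipid between cells.

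The share of panel-high cells was 60.5% in mouse 1, 63.3% in mouse 2 and 70.7% in mouse 3, with exact 95% Clopper-Pearson intervals of 44.4% to 75.0%, 48.3% to 76.6% and 54.5% to 83.9%. In WT hippocampus, 2 of 177 cells were panel-high, and the share per mouse ran from 0% to 2.27%. WT and 5xFAD hippocampus lay on different plates, so plate and genotype cannot be told apart in this contrast. In the 5xFAD cerebellum, which shared the plate of the 5xFAD hippocampus, the share ran from 12.3% to 28.8% over 3 mice. In WT cerebellum, on another plate, the share ran from 3.57% to 16.2% over 4 mice, so the cerebellar ranges overlap. In the 5xFAD cortex it ran from 22.5% to 36.4% over 4 mice. The share of each 5xFAD hippocampal mouse lay above that of every mouse of the other groups. Some intervals overlapped, such as 44.4% to 75.0% in hippocampal mouse 1 and 22.4% to 52.2% in 5xFAD cortex mouse 4. These shares use the values that chose the cells and are a description.

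**Figure D1:**
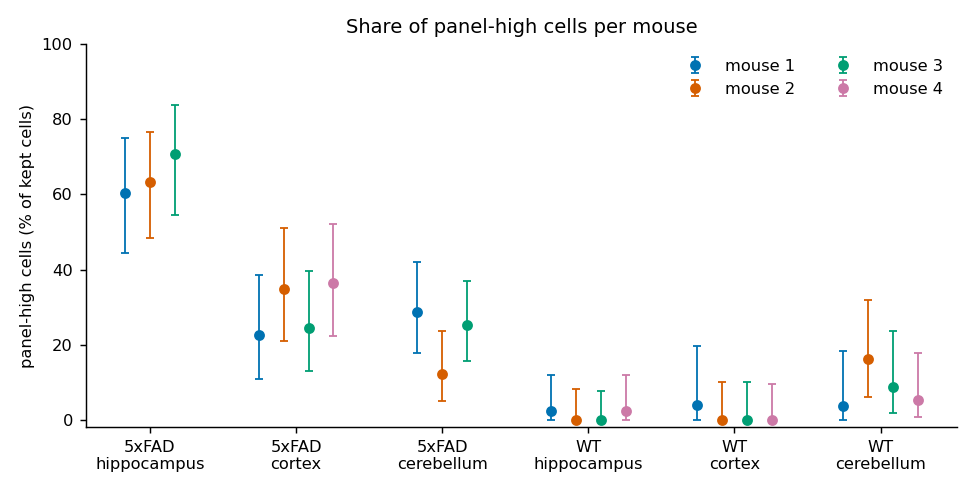
Share of panel-high cells among kept cells (y axis, %) for each mouse of the 6 groups of region and genotype (x axis), with points for mice and bars for exact 95% binomial intervals. The 3 mice of the 5xFAD hippocampus lie between 60.5% and 70.7%, above every other mouse.

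Among the panel genes, Cst7, a cystatin, had reads in 94.2% of panel-high and 19.4% of panel-low cells. Clec7a, the receptor dectin-1, had reads in 91.9% and 9.68%, and Axl, a receptor tyrosine kinase, in 90.7% and 12.9%. Lpl, lipoprotein lipase, had reads in 73.3% and 6.45%. Itgax, the integrin CD11c, had reads in 48.8% and in 0 of 31 panel-low cells, and the growth factor gene Igf1 in 44.2% and 3.23%. The 2 rarest were Spp1, osteopontin, at 19.8%, and Gpnmb, at 11.6%, both without a read in the panel-low cells. In WT hippocampus, the panel genes most often seen, Clec7a and Lpl, each had reads in 6.21% of cells. The 12 blank wells had reads in at most 1 panel gene.

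Cells just inside and just outside the threshold were close in panel reads. The 19 cells with 3 panel genes had a median summed panel level of 784 CPM (reads scaled to a common total of gene reads per cell), from 16.3 to 12848. The 16 cells with 2 panel genes had a median of 667 CPM, from 6.36 to 11398. The 16 panel-low cells with 1 panel gene had a median of 48.5 CPM, although the highest reached 3381 CPM, and 15 cells had no panel read.

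Depth did not order the classes, whereas several other measures of the wells did. Median reads in genes were 356580, 365918 and 328246 in the panel-high cells of mice 1 to 3, and 362140, 312966 and 428875 in the panel-low cells. After each cell was thinned to 53000 reads, the median number of genes detected was higher in panel-high cells in 2 of 3 mice. The median share of mitochondrially encoded reads was 2.79%, 3.73% and 2.54% in panel-high cells against 1.66%, 1.75% and 1.30% in panel-low cells. Median gene reads per spike-in read were 756, 738 and 913 against 459, 531 and 709. Ribosomal protein genes took 0.520%, 0.542% and 0.508% of reads against 0.407%, 0.439% and 0.316%. These 3 measures were higher in panel-high cells in 3 of 3 mice. The share of reads of Slc34a2, a phosphate transporter gene, was lower in 3 of 3 mice, with medians of 0.0631%, 0.0650% and 0.0693% against 0.114%, 0.0860% and 0.0956%, as was the share of spike-in reads. The exact two-sided sign-flip test gave p = 0.25 for each of these measures, the smallest that 3 pairs allow. Their part in the gene differences given here was not tested.

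Genes other than the panel were compared on reads summed over the cells of each mouse and class, which gave 3466955 to 3705957 reads for the panel-low sums and 9126834 to 11629032 for the panel-high sums. Levels are log2 CPM of these sums, and differences are log2 fold changes of panel-high against panel-low cells with their standard error (SE). The edgeR quasi-likelihood test with the mouse as a block called 0 of 9716 genes (0%) at a Benjamini-Hochberg adjusted p of 0.05. The smallest adjusted p was 0.105, for the cathepsin genes Ctsd and Ctsb. At an unadjusted p of 0.05 it held 489 genes (5.03%), 385 of them higher (3.96%) and 104 lower (1.07%) in panel-high cells. DESeq2 on the same sums called 579 genes higher (5.96%) and 97 lower (0.998%). Limma on each mouse's mean log2(CPM + 1) over cells called 46 higher (0.473%) and 6 lower (0.0618%), and an edgeR fit that pooled the spread over all 5xFAD regions called 16 higher (0.124%) and 6 lower (0.0464%).

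Direction over the mice therefore stands beside each gene. Of the genes tested, 2250 (23.2%) were higher in panel-high cells in all 3 mice and 867 (8.92%) lower. For 1363 genes (14%) every panel-high sum lay above every panel-low sum, and for 439 genes (4.52%) below. A gene with no panel-low read enters the test through the panel-high sums alone and cannot lie lower. Of the program lists given below, the disease-associated list held 3 such genes, and the lipid and cell cycle lists 2 each. The lysosome, inflammatory cytokine, transcription factor, and motility and actin lists held 1 each. The median log2 fold change of all genes was 0.66 under TMM scaling and 0.52 under RLE, a shift of 0.14, so fold changes near these values are no departure from the typical gene. Restricted to the 475 most abundant genes, those at 8 log2 CPM or more on average, the median was 0.18, the nearer reference for such genes. Of these 475, 162 (34.1%) were higher and 94 (19.8%) lower in all 3 mice.

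Lysosomal proteases were the genes with the smallest p. Ctsd, cathepsin D (chromosome 7, 142375911 to 142388038 in GRCm38, minus strand), stood at 13.40, 13.47 and 12.86 log2 CPM in the panel-low cells of mice 1 to 3 and at 15.07, 14.96 and 14.91 in the panel-high cells. Every panel-high sum was above every panel-low sum, and the log2 fold change was 1.74 ± 0.13 (SE). Its median level over cells was 8554 CPM in panel-low and 24715 CPM in panel-high cells.

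Ctsb, cathepsin B (chromosome 14, 63122462 to 63145923), stood at 12.09, 12.42 and 11.96 in panel-low and 13.88, 13.94 and 14.04 in panel-high cells. The classes did not overlap, and the log2 fold change was 1.80 ± 0.14. Limma, DESeq2 and the fit over all 5xFAD regions each called Ctsd and Ctsb higher. Ctsz, cathepsin Z, stood at 11.52, 11.46 and 10.56 against 12.78, 12.99 and 12.89, with a log2 fold change of 1.71 ± 0.23, and the fit over all regions called it too.

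The lysosome list held 45 genes, of which 42 were tested. In all 3 mice 32 of these were higher in panel-high cells and 1, Lgmn, was lower, and the median log2 fold change was 0.88. Limma called 2 of them higher and 0 lower, and DESeq2 called 13 higher and 0 lower. Hexa, a subunit of the hexosaminidase that degrades gangliosides, had a log2 fold change of 1.11 ± 0.21 with no overlap. Other members were Cd68, a macrosialin of late endosomes, at 1.47 ± 0.28, and Npc2, a lysosomal cholesterol carrier, at 0.97 ± 0.22. The progranulin gene Grn had 0.68 ± 0.17, close to the median of all genes and above that of the most abundant genes, 0.18, to which it belongs.

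Lysosomal genes are known to carry the E-box CACGTG, a motif bound by Tfeb and related factors, near their start. RefSeq promoter sequences (GRCm38.p6) were found for 34 genes of the lysosome list, and 12 of them (35.3%) held CACGTG within 250 bases before a start. The motif reads the same on both strands. It was present in 10.4% of the 7374 tested genes with a promoter sequence and in 6.02% of all 32851 promoters. Of the homeostatic list, 3 of 24 genes (12.5%) held it. For PU.1 (GAGGAAGT) and AP-1 (TGANTCA), searched on both strands, the lysosome list held 2 and 4 genes against 3.27% and 5.06% of the tested genes. Of the 11 tested lysosomal genes with CACGTG, 8 were higher in all 3 mice, and their median log2 fold change was 0.81. The promoters of Ctsd, of Lamp1 and Ctsl, which differ in how often they hold the motif, and of the homeostatic gene P2ry12 are shown, 5′ to 3′ on the strand of the gene, with CACGTG in capitals.
Ctsd, chr7:142387828-142388077, minus strand: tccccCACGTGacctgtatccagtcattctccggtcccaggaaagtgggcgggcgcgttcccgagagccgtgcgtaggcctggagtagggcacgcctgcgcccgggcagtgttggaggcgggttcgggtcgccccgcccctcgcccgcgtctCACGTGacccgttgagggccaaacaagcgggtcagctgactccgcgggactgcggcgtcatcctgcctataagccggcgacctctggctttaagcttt
Lamp1, chr8:13158911-13159160, plus strand: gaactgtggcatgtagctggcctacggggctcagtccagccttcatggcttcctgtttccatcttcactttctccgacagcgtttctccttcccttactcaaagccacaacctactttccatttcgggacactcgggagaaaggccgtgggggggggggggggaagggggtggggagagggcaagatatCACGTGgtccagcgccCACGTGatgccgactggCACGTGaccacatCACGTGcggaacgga
Ctsl, chr13:64370521-64370770, minus strand: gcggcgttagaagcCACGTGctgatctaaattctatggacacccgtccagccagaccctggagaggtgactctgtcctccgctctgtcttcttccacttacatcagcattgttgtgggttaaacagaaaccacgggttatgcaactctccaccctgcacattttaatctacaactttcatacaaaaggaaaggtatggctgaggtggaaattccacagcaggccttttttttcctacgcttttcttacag
P2ry12, chr3:59262986-59263235, minus strand: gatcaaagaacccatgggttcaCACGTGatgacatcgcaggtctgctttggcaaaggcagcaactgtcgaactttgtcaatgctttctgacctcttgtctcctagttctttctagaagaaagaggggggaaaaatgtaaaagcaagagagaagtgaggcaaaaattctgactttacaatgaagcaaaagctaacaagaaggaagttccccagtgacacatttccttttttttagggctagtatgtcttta
P2ry12 holds the motif as Ctsd does, and its level lay the other way between the classes. A match is a description of the sequence. The Ctsd sequence lies before its RefSeq start and overlaps the gene span given above, which reaches further upstream. Tfeb itself had 0 reads in the panel-low cells and 561 in the panel-high cells, which is at least 74.5-fold higher relative to TMM-scaled library size, against a floor of 3 reads over the group. It was seen in 16.3% of panel-high cells. On 1 scaling, Tfeb stood at 3.93 ± 0.91 log2 CPM (SD, n = 4) in panel-low cells of WT hippocampus, on another plate. The panel-high cells stood at 4.27 ± 0.49 (n = 3). By the same class rule its log2 fold change was -3.67 ± 2.12 (SE) in 5xFAD cortex and -0.16 ± 2.32 in 5xFAD cerebellum. The absence of reads thus rests on the 31 panel-low cells of this group.

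Some receptor and signalling genes of the phagocytic response also lay higher in panel-high cells. Tyrobp, the adaptor of Trem2, stood at 9.96, 9.85 and 9.99 log2 CPM in panel-low and 11.83, 11.84 and 11.38 in panel-high cells, with a log2 fold change of 1.75 ± 0.20. Trem2, the lipid-sensing receptor (chromosome 17, 48346401 to 48354147), stood at 10.81, 11.06 and 11.09 against 12.01, 11.90 and 11.75, with 0.90 ± 0.17. Neither gene overlapped between the classes, and the fit over all 5xFAD regions called both higher. The complement gene C1qb had a log2 fold change of 0.60 ± 0.11, with no overlap. That is below the median of all genes, 0.66, and above that of the most abundant genes, 0.18, to which C1qb belongs.

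Of 21 tested complement and phagocytic receptor genes, 10 were higher and 3 lower in all 3 mice, with a median of 0.43. Stab1, a scavenger receptor, was among the lower ones, at 9.23, 8.33 and 8.62 in panel-low and 6.80, 6.10 and 5.40 in panel-high cells. Its log2 fold change was -2.63 ± 0.41, reads were found in 77.4% of panel-low and 40.7% of panel-high cells, and limma and the fit over all regions called it lower. The phagocytic kinase gene Mertk had 0.05 ± 0.30.

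Apoe showed the widest gap among abundant genes and the widest spread in panel-low cells. Apolipoprotein E (chromosome 7, 19696109 to 19699188) stood at 7.63, 9.06 and 11.75 log2 CPM in the panel-low cells of mice 1 to 3 and at 14.56, 14.46 and 13.95 in panel-high cells. The classes did not overlap, the log2 fold change was 4.96 ± 1.03, and limma called it higher while the edgeR adjusted p was 0.814. Median levels over cells were 56.1, 161 and 296 CPM in panel-low and 15753, 13169 and 12912 CPM in panel-high cells. The high panel-low sum of mouse 3 holds 1 cell of 27796 CPM whose only panel gene was Axl, and the next cell had 11231 CPM. At least 1000 CPM of Apoe was present in 0 of 11, 3 of 11 and 3 of 9 panel-low cells, and in 20 of 26, 29 of 31 and 25 of 29 panel-high cells.

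Lipid genes beside Apoe included Pld3, a lysosomal phospholipase D family member, at 7.67, 8.19 and 8.54 against 10.27, 10.48 and 10.25. Its log2 fold change was 2.20 ± 0.28, and limma and the fit over all regions called it. Ch25h, cholesterol 25-hydroxylase, had 3 reads in panel-low and 5244 in panel-high cells, a ratio of 697 relative to TMM-scaled library size, with an exact counting interval of 238 to 3380. Of 26 tested lipid handling genes, 12 were higher in all 3 mice and 1, the cholesterol exporter Abca1, was lower, with a median of 1.86. Limma called 4 higher, with a list median of 1.21 on its scale.

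The disease-associated list, without the panel, held 46 genes and 41 were tested. In all 3 mice 38 were higher and 0 lower, with a median log2 fold change of 2.12, the smallest being 0.81. Limma called 16 higher and DESeq2 36, and neither called any lower. The list and the panel come from 1 known program, so its direction is not independent of the class rule. Lyz2, lysozyme, stood at 9.45, 9.60 and 9.89 against 11.91, 11.50 and 11.88, with a log2 fold change of 2.12 ± 0.20. Fth1, the ferritin heavy chain that stores iron, stood at 9.85, 9.84 and 9.78 against 11.49, 11.73 and 11.11, with 1.62 ± 0.19. B2m, the light chain of MHC class I, stood at 11.77, 11.90 and 11.23 against 12.73, 12.62 and 12.57, with 1.01 ± 0.17. None of these 3 genes overlapped between the classes. Lgals3, galectin-3, had 0 reads in panel-low and 2422 in panel-high cells, and was seen in 17.4% of the latter.

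**Figure D2:**
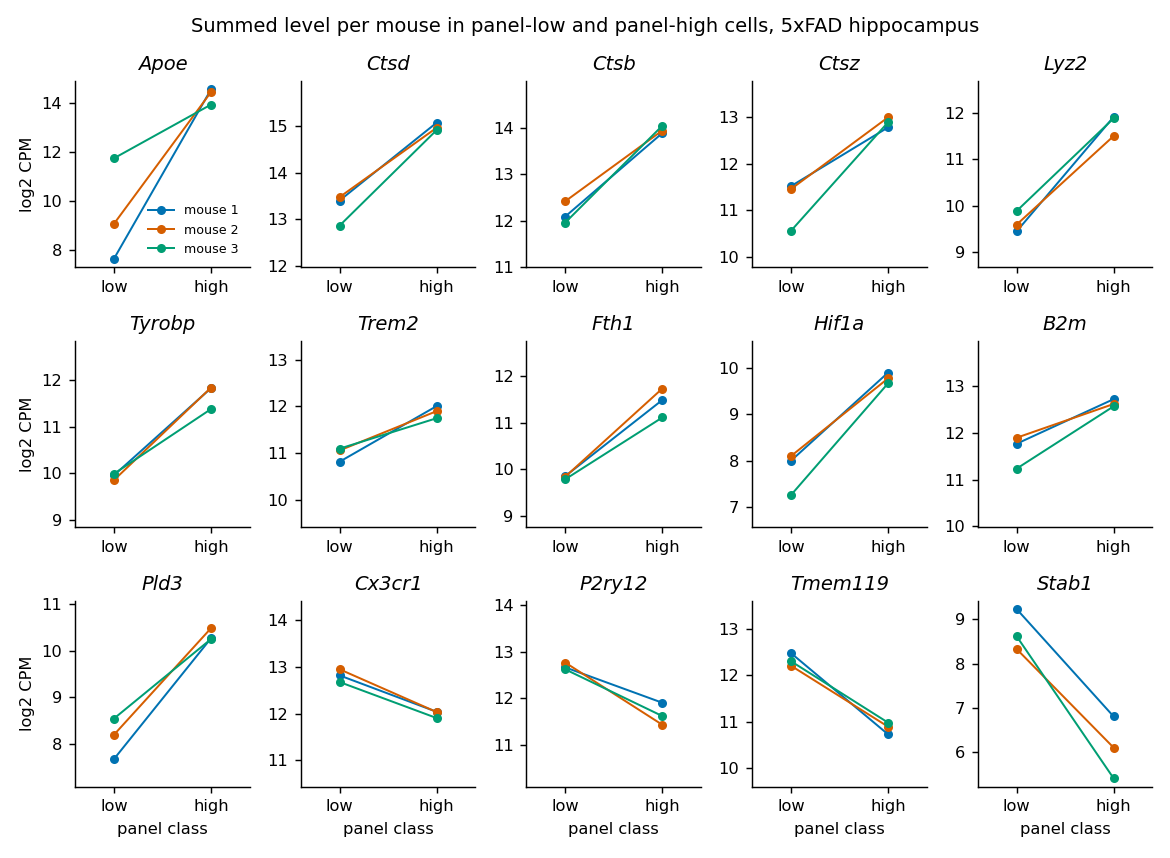
Summed level (y axis, log2 CPM) of 15 genes in panel-low and panel-high cells of the 5xFAD hippocampus (x axis), with 1 line for each of 3 mice. The y axes differ in position between genes. Lines of Ctsd, Ctsb, Lyz2, Tyrobp and Fth1 climb in each of the 3 mice, and those of Tmem119, P2ry12, Cx3cr1 and Stab1 descend in each mouse.

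Homeostatic genes lay lower in panel-high cells, by less than the disease-associated genes lay higher. Tmem119, a membrane protein gene that marks microglia (chromosome 5, 113793729 to 113800516), stood at 12.48, 12.21 and 12.30 in panel-low and 10.73, 10.90 and 10.99 in panel-high cells, with a log2 fold change of -1.46 ± 0.16. P2ry12, the purinergic receptor that senses ATP and ADP, stood at 12.66, 12.76 and 12.62 against 11.90, 11.43 and 11.62, with -1.03 ± 0.16. Cx3cr1, the fractalkine receptor, stood at 12.82, 12.95 and 12.68 against 12.04, 12.03 and 11.90, with -0.82 ± 0.12. For these 3 genes every panel-high sum was below every panel-low sum, and the fit over all 5xFAD regions called them lower. Relative to the median of all genes, 0.66, the gaps are wider. Relative to that of the most abundant genes, 0.18, they are wider by less.

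Of the 36 tested homeostatic genes, 22 were lower in all 3 mice and 1, Cst3, which encodes cystatin C, was higher, with a median of -0.46. DESeq2 called 9 lower and 0 higher, and limma called none in either direction. Of all genes tested, 8.92% were lower in all 3 mice, and of the 475 most abundant, 19.8%. The kinase receptor gene Csf1r, needed for microglial survival, had -0.17 ± 0.11 and Siglech -0.20 ± 0.15. The transcription factor gene Sall1 had reads in 83.9% of panel-low and 81.4% of panel-high cells. Its level was lower in all 3 mice, by -1.68, -0.81 and -0.75 on sums scaled to library size. Among panel-high cells, Csf1r had reads in 100%, P2ry12 and Cx3cr1 in 98.8% and Tmem119 in 97.7%.

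Energy metabolism genes lay higher as well. Hif1a, a hypoxia-inducible factor, stood between 7.26 and 8.10 in the 3 panel-low sums and at 9.89, 9.77 and 9.66 in panel-high cells, with a log2 fold change of 1.99 ± 0.29 and no overlap, and limma called it. The glycolytic enzyme genes Aldoa, aldolase, and Pkm, pyruvate kinase, had 1.90 ± 0.36 and 2.04 ± 0.51. Of 17 tested genes of glycolysis and Hif1a, 11 were higher in all 3 mice and 1, Pfkfb3, was lower, with a median of 1.72. Limma called 5 of them higher. Of 43 tested nuclear genes of the respiratory chain, 30 were higher in all 3 mice and 0 lower, with a median of 1.17. Limma and DESeq2 each called 1 of the 43. The share of mitochondrially encoded reads moved with these genes, and its part was not tested.

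Antigen presentation genes were uneven. Of 16 tested MHC class I genes, 7 were higher in all 3 mice and 0 lower, with a median of 0.49, below that of all genes. H2-D1 had a log2 fold change of 0.82 ± 0.18. Of 7 tested MHC class II genes, 6 were higher in all 3 mice, with a median of 4.06 on the sums and 0.82 on limma's mean over cells. Cd74, the invariant chain, was seen in 62.8% of panel-high and 19.4% of panel-low cells, and its panel-low sums of 5.28, -0.79 and 3.97 against 8.40, 7.59 and 8.34 show how widely the mice differed.

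Of 22 tested inflammatory cytokine genes, 6 were higher and 2 lower in all 3 mice, with a median of 0.69 on the sums and 0.17 on limma's mean over cells. The chemokine gene Ccl3 was seen in 72.1% of panel-high and 16.1% of panel-low cells, and its panel-low sums ran from -1.73 to 5.74 log2 CPM. Of 31 tested interferon response genes, 3 were higher and 3 lower, with a median of 0.40 on the sums and -0.03 on limma's mean over cells. Of 11 tested cell cycle genes, 4 replication genes, Mcm4, Mcm6, Pcna and Tyms, were higher in all 3 mice and 0 were lower. The median was 3.23 on the sums but 0.18 on limma's mean over cells. Mcm4 was seen in 10.5% and Mcm6 in 9.30% of panel-high cells, and neither had a read in panel-low cells. These 2 genes entered the test through the panel-high sums alone and could not lie lower. In panel-low cells of WT hippocampus, Mcm4, Mcm6, Pcna and Tyms stood at 3.16, 2.92, 4.93 and 2.95 log2 CPM. Their class differences in 5xFAD cortex were -2.53, 1.45, -0.19 and -1.03. Pcna was seen in 54.7% against 16.1%.

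Inhibitory receptor genes held members in both directions. Of 20 tested, 6 were higher and 6 lower in all 3 mice, with a median of 0.08 by edgeR and -0.06 by DESeq2. Pdcd1, the checkpoint receptor PD-1, had 1 read in the 31 panel-low cells and 6624 in the panel-high cells, and was seen in 38.4% of the latter. The ratio relative to TMM-scaled library size was 2640, with an exact counting interval of 474 to 104308. Its panel-high level was 7.86 ± 0.19 log2 CPM (SD, n = 3), and limma and the fit over all regions called it higher. On 1 scaling, Pdcd1 stood at 1.92 ± 3.73 (SD, n = 4) in panel-low cells of WT hippocampus, on another plate. These WT mice ran from -1.49 to 5.50, and 5xFAD panel-low cells stood at -1.64 ± 0.64. The near absence of reads thus rests on the 31 panel-low cells of this group. Lilrb4a, an inhibitory receptor of myeloid cells, was seen in 45.3% against 3.23% of cells. In the other direction, Cd33, an inhibitory sialic acid receptor, had -0.67 ± 0.26 and Siglece -2.69 ± 0.90.

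Of the other lists, 16 of 28 motility and actin genes were higher and 3 lower in all 3 mice, with a median of 0.79. For iron handling it was 5 higher and 1 lower of 13, with a median of 1.62 on the sums and 0.40 on limma's mean over cells. Transcription factors had 6 higher and 4 lower of 28, with a median of 0.16, or -0.16 on limma's mean over cells. Immediate early genes, which dissociation is known to induce, had 3 higher and 2 lower of 14, with a median of 0.38, or -0.13 on that scale. Glucocorticoid-induced genes had 2 higher and 3 lower of 8, with a median of 0.45. Mouse orthologs at Alzheimer disease risk loci had 9 higher, Apoe, Trem2 and Grn among them, and 5 lower, Bin1 and Cd33 among them, of 31. Their median was 0.12 by edgeR and -0.02 by DESeq2. Of all genes tested, 23.2% were higher and 8.92% lower in all 3 mice, and of the 475 most abundant, 34.1% and 19.8%. The risk locus list lay between these shares in both directions. Transcription factors and immediate early genes lay near the 23.2% for higher genes.

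**Figure D3:**
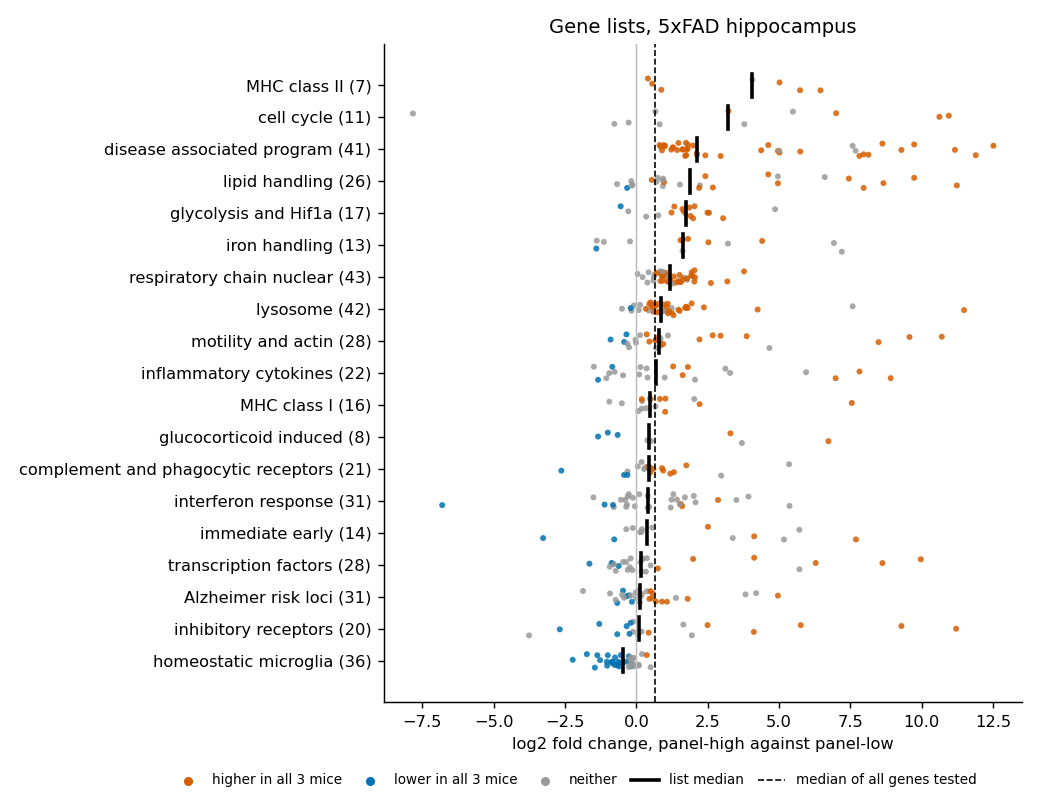
Log2 fold change of panel-high against panel-low cells (x axis) for each tested gene of 19 gene lists (y axis, number of genes tested in parentheses). Orange and blue points were higher or lower in all 3 mice, grey points neither, black bars are list medians and the dashed line is the median of all genes, 0.66. The disease-associated list has a median of 2.12 and the homeostatic list, the lowest, -0.46.

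Markers of other cell types were examined in both classes. Border macrophage markers, 12 genes, summed to 0 to 8.04 CPM in panel-low and 6.98 to 13.2 CPM in panel-high sums. Of the 12, 6 were at 0 in both, Mrc1 and Cd163 among them. Lyve1, F13a1, Folr2, Pf4 and Ms4a7 had reads in the panel-high sum of mouse 3. No member had a read in the panel-low sums of mice 2 and 3. Monocyte markers, 9 genes, summed to 1.44 to 12.7 and 2.29 to 34.6 CPM, with 3 of them, Ly6c2 included, at 0 in both. Oligodendrocyte markers, 10 genes, summed to 444 to 721 and 665 to 805 CPM. Of these, 3 were at 0 in both, Cldn11 among them, while Mbp, Mag, Cnp and Trf had reads in every sum. Neutrophil markers summed to 839 to 1132 and 589 to 743 CPM, with Mmp8 and Cxcr2 at 0 in both and Csf3r with reads in every sum. B cell markers summed to 569 to 1441 and 677 to 894 CPM, with Pax5 at 0 in both and Ighm with reads in every sum. Astrocyte markers summed to 135 to 305 and 130 to 190 CPM, and endothelial markers to 27.8 to 74.1 and 6.87 to 61.4 CPM. Markers of T and NK cells, neurons and red blood cells reached at most 14.6 CPM in any sum. At least 10 reads in each of 3 markers of 1 other cell type were found in 4 panel-low and 9 panel-high wells, 12 of them for oligodendrocytes. Without these wells edgeR again called 0 genes, and the medians of the disease-associated, homeostatic and lysosome lists were 2.19, -0.34 and 0.83.

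Levels were also followed over the number of panel genes detected. Means of log2(CPM + 1) over cells, averaged over 3 mice, are given with their SD. Ctsd stood at 12.16 ± 1.03 in cells with 0 panel genes, 13.26 ± 0.21 with 1, 13.83 ± 0.46 with 2 and 14.87 ± 0.10 with 6 to 7. Apoe stood at 5.26 ± 1.01, 7.36 ± 2.20, 8.47 ± 3.46 and 9.35 ± 4.11 in cells with 0, 1, 2 and 3 panel genes, and at 12.99 ± 0.56 with 4. Its spread between mice was widest in cells with 2 and 3 panel genes. Tmem119 stood at 11.16 ± 1.16 with 0 panel genes, 11.77 ± 0.30 with 1, 10.43 ± 0.71 with 3 and 8.62 ± 1.38 with 6 to 7. Csf1r stood at 12.93 ± 1.13 with 0 and 13.63 ± 0.02 with 1 panel gene, and Cx3cr1 at 10.58 ± 2.08 and 12.85 ± 0.08. For both genes, cells with 0 panel genes were lower than cells with 1 in mice 1 and 3 and not in mouse 2, which holds 8 of the 15 cells. Whether well quality had a part in the 15 cells with 0 panel genes was not tested.

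**Figure D4:**
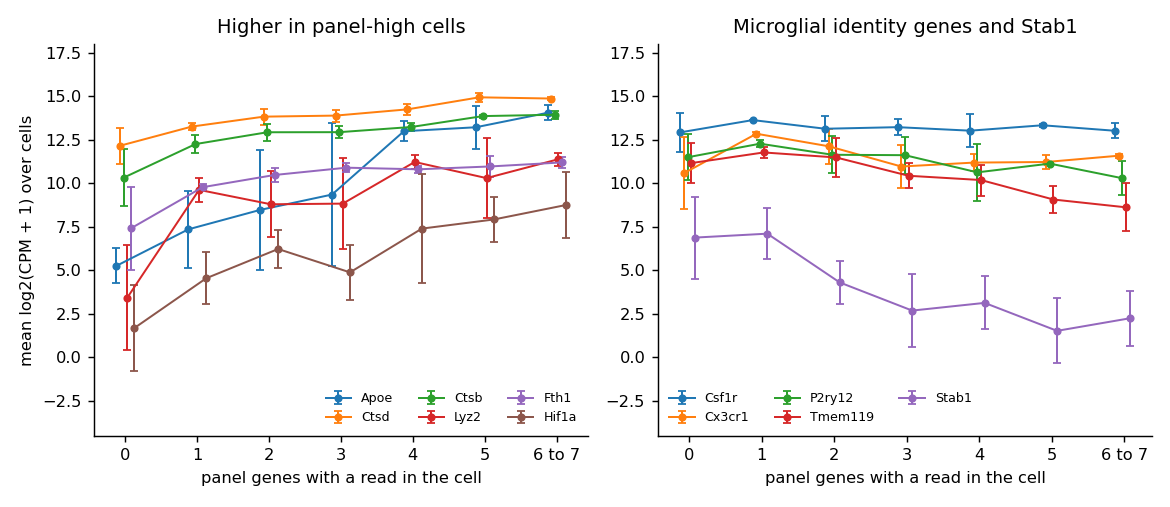
Mean log2(CPM + 1) over cells (y axis) by the number of panel genes with a read in the cell (x axis), averaged over 3 mice with SD bars, for 6 genes that were higher in panel-high cells (left) and for microglial identity genes and Stab1 (right). Apoe goes from 5.26 with 0 to 14.05 with 6 to 7 panel genes, while Tmem119 goes from 11.16 with 0 and 11.77 with 1 to 8.62.

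Panel-low cells were set beside the panel-low cells of WT hippocampus, 172 cells of 4 mice on another plate, on 1 scaling and with no test. For Ctsd, WT cells stood at 13.08 ± 0.15 log2 CPM (SD, n = 4), 5xFAD panel-low cells at 13.31 ± 0.33 (n = 3) and panel-high cells at 15.01 ± 0.08. Tmem119 stood at 12.41 ± 0.18, 12.40 ± 0.14 and 10.90 ± 0.13. For Lyz2 the 3 levels were 7.91 ± 0.33, 9.71 ± 0.23 and 11.79 ± 0.22, and for H2-D1 they were 9.20 ± 0.34, 10.90 ± 0.24 and 11.68 ± 0.05. P2ry12 stood at 13.21 ± 0.12, 12.75 ± 0.06 and 11.67 ± 0.23, and Ctsb at 11.88 ± 0.05, 12.22 ± 0.22 and 13.98 ± 0.08. Panel-low 5xFAD cells differed from WT by less than their own SD for Ctsd and Tmem119. For P2ry12, Ctsb, Lyz2 and H2-D1 the gap to WT was wider than that SD, and their mean lay between WT and panel-high cells. Plate differs together with genotype, so the pair cannot be told apart.

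The class difference was then set against that of the 5xFAD cortex, with 51 panel-high and 104 panel-low cells of 4 mice, in 1 model with an interaction term. The difference between the regions passed for 0 of 11714 genes (0%) at an adjusted p of 0.05 by edgeR, with 518 (4.42%) at an unadjusted p of 0.05. In this joint fit, whose spread is shared by both regions, edgeR called 22 genes higher (0.188%) and 6 lower (0.0512%) between the hippocampal classes, Ctsd, Ctsb, Lyz2, Apoe and Tmem119 among them. In the cortex it called 22 genes higher (0.188%) and 7 lower (0.0598%), while 935 (7.98%) were higher and 1477 (12.6%) lower in all 4 mice. Apoe had a log2 fold change of 4.94 ± 0.78 in hippocampus and 4.91 ± 0.61 in cortex, a difference of 0.02 ± 0.87 (SE). Ctsd had 1.71 ± 0.17 and 1.38 ± 0.15, Ctsb 1.77 ± 0.20 and 1.43 ± 0.17, and Tmem119 -1.48 ± 0.12 and -1.17 ± 0.11. In this joint fit P2ry12 had -1.06 ± 0.15 and -1.31 ± 0.13.

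Some genes stood further apart between the regions without passing the test. C1qb, with 0.57 ± 0.08 in hippocampus and 0.25 ± 0.07 in cortex, differed by 0.32 ± 0.11, with an edgeR adjusted p of 0.884. Of the disease-associated list, 41 of 44 tested genes were higher in all 4 mice in cortex, with a median of 1.93, and edgeR called 17 higher there. Of the homeostatic list, 26 of 36 were lower in all 4 mice in cortex, with a median of -0.55, and 5 were called lower. For the respiratory chain, 13 of 44 genes were higher in all 4 cortical mice, with a median of 0.44. Cortex and hippocampus lay on different plates, but each class difference is within a plate.

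**Figure D5:**
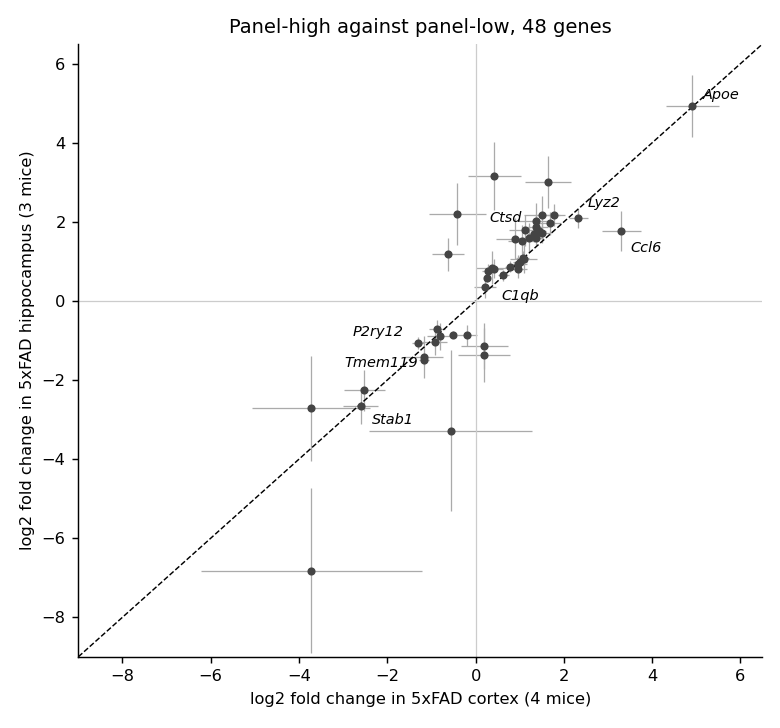
Log2 fold change of panel-high against panel-low cells in the 5xFAD hippocampus (y axis) against the 5xFAD cortex (x axis) for the 48 of 69 named genes with a mean of at least 4 log2 CPM in hippocampal panel-low cells, with SE bars from the joint edgeR fit and the line of equal values dashed. Apoe, at 4.94 and 4.91, and Stab1, at -2.66 and -2.61, lie near the line.

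Against the 5xFAD cerebellum, with 42 panel-high and 110 panel-low cells of 3 mice on the same plate, the interaction passed for 0 of 11974 genes (0%) by edgeR, with 438 (3.66%) at an unadjusted p of 0.05. Between the hippocampal classes this fit called 1 gene higher (0.00835%), Pdcd1, and 0 lower (0%), and in cerebellum 0 genes (0%) were called in either direction. Apoe had a log2 fold change of 4.98 ± 1.16 in hippocampus and 1.56 ± 1.05 in cerebellum. The difference was 3.42 ± 1.56 with an adjusted p of 0.950 by edgeR. On sums scaled to library size, Apoe differed by 4.57, 0.54 and 0.17 in cerebellar mice 1 to 3. The hippocampal mice had 6.76, 5.17 and 1.98. The panel-high sum of cerebellar mouse 2 holds 7 cells. For Ctsd the fit gave 1.76 ± 0.25 in hippocampus and 0.86 ± 0.24 in cerebellum. The smallest adjusted p of the edgeR interaction, 0.371, was that of Pdcd1, whose fitted value rests on 1 read in the hippocampal panel-low cells. Tmem119 had -1.43 ± 0.21 in hippocampus and -1.05 ± 0.20 in cerebellum.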

How the data were processed

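Single sorted microglia were sequenced with Smart-seq2. The deposited table holds raw counts, whole reads per gene and well, without normalization. The tools named for it, per the submitters' processing notes, are STAR 2.5.2b and featureCounts 1.5.1, with the build GRCm38. Annotation and strand setting: not given in the sources used here. Columns of 96 wells held sums over several wells of a plate row, and the other wells were subtracted, which gave 0 negative values among 4673184. The filter on cells asked for 500 genes, 53000 gene reads and no more than 20% of reads from mitochondrially encoded genes. Reads are not molecules, so intervals cover counting error only.

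Reads were summed per mouse and class, the 8 panel genes left out, and tested with edgeR 4.0.16 in R 4.3.3. The steps were TMM, filterByExpr and a quasi-likelihood fit with the mouse as a block (both sums of a pair come from 1 replicate). Benjamini-Hochberg adjustment ran over all 9716 genes. The SE of a log2 fold change was derived from the F statistic. Interactions with cortex and cerebellum used sums of at least 5 cells. Alternatives included DESeq2 1.42.0 and limma 3.58.1. On simulated data (9041 genes, this comparison) the fit recovered 0% of genes changed by 1 on the log2 scale and 5.05% of those changed by 2, with 3 false calls.

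Gene positions are from GENCODE on GRCm38. The rule for named genes asked for the 15 genes in each direction with the largest change among those past the threshold (at least 4 log2 CPM, reads in 20% of the cells of a class, 1 direction in every mouse), up to 4 members of each of 19 program lists with the smallest p, and, among fixed names, P2ry12, Tmem119, Cx3cr1, Apoe, Trem2, Tyrobp, Ctsb and Ctsd. As no gene passed, the 69 named genes came from the lists and the fixed names; members of lists and results of other tests named beside them were chosen after their values were seen. The cells, panel and lists were chosen with earlier results of these data known. Some lists share members. The labels number replicates, each taken here as 1 mouse, and p-values measure the spread between them. 1 fixed name and 1 marker are not reported here.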

Additional observations from a re-analysis of the deposited data

Results flagged for a closer look

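In a group of 4 mice, a mouse whose gap to the nearest other was large against the range of the group was marked, which chance does in about 1 of 20 groups. Among the shares of panel-high cells, 3.85% in mouse 1 of WT cortex stood apart from 0% in the other 3 mice, and it rests on 1 cell of 26. Cortical class differences were taken on sums scaled to library size. Mouse 1 stood apart for Ctsb, with 2.09 against 1.05 to 1.09 in the other mice, and for Tyrobp, with 2.27 against 1.07 to 1.15. Ctsb and Tyrobp are not the full list over the named genes. Fth1 in mouse 1 had 1.71 against 1.06 to 1.12, and Mcm6 in mouse 3 had 5.41 against 0.27 to 0.71. Groups of 3 mice, the hippocampus among them, were not examined this way.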

How the results depend on the processing

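The count of genes called between the classes, 0, was the same under RLE or upper-quartile scaling, a stricter filter, plate columns 1 and 2 as deposited or left out, a panel gene detected from 10 reads, cells with 2 panel genes in the low class, and without wells holding markers of another type. It was 7 without the replicate block, 28 with no filter on low counts, 676 by DESeq2, 52 by limma on cell means, 6 by limma-voom, 4 with cells thinned to 53000 reads, 3 with cells of at least 10000 reads, 33 for at least 4 panel genes against 0, and 22 in the fit of all 5xFAD regions. Leaving out each mouse gave 0 to 0 calls. The pairing of classes within a mouse comes from the design, and without the replicate block the 7 calls were Ctsb, Ctsd, Lyz2, Tyrobp, Pdcd1, Serpine2 and Tmem119. The interaction with cortex called 15 genes and that with cerebellum 26 with no filter on low counts, and 0 otherwise, without each hippocampal mouse included. The mean share of panel-high cells, 64.8%, was 50.5% with panel genes detected from 10 reads, 56.5% after thinning and 59.2% with cells of at least 10000 reads. Of 69 named genes, 67 kept their direction in the alternatives that gave a value. Egr1 reversed without the replicate block, at -0.61, and by limma on cell means, at -0.16. Sgk1 reversed for at least 4 panel genes against 0, at -0.081. The cause of these changes was not tested. With 9 to 11 panel-low cells a mouse, rarely detected genes are poorly measured in that class.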
